A study of Mus musculus with 96 samples.

Results

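The nuclear-encoded subunits of mitochondrial respiratory complexes I to IV were examined across 15 parts of the mouse nephron. Genes were taken by symbol: Nduf genes of the a, b, c, s and v series with a number, Sdha to Sdhd, Uqcr genes, Cyc1, and Cox4 to Cox8 genes. This gave 68 of the 54532 genes in the table, of which 35 belong to complex I, 4 to complex II, 9 to complex III and 20 to complex IV, where Ndufa4 was also placed. The samples were glomeruli and 14 hand-dissected tubule segments of untreated male C57BL/6 mice aged 6 to 8 weeks on normal chow. Pieces with one mouse number and segment were averaged first, which turned 93 samples into 53 mouse-by-segment values. PTS2, CTAL and CCD had 5 mice, ATL and OMCD had 4, and the other groups had 3. The labels name no treatment and no genetic change in any group. They do not say whether a mouse number means the same animal in different segments, so p-values measure the spread between these mice within segments. The exception is the comparison of isoform shares between glomerulus and tubule. It pools the 50 tubule mice, so its spread includes differences between segments.

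The groups follow the tubule: the glomerulus (GL), the initial, medullary-ray and last proximal segments (PTS1, PTS2, PTS3), and the short, outer-medullary long and inner-medullary long descending thin limbs (DTL1, DTL2, DTL3). They continue with the thin ascending limb (ATL), the thick ascending limb in medulla (MTAL) and cortex (CTAL), the distal convoluted tubule (DCT) and the connecting tubule (CNT). The cortical, outer medullary and inner medullary collecting ducts (CCD, OMCD, IMCD) close the series. Dissected pieces are bulk samples, so fewer mitochondria-rich cells and less RNA per cell cannot be told apart, and CNT, CCD and OMCD contain both principal and intercalated cells. Levels are TPM, length-corrected transcript abundances that sum to the same total in each sample.

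The respiratory chain passes electrons from NADH (complex I) and succinate (complex II) through ubiquinol and complex III to cytochrome c, and complex IV hands them to oxygen, while complexes I, III and IV pump protons that drive ATP synthase. Proximal tubule, thick limb and distal convoluted tubule are packed with mitochondria and pay for active salt transport, whereas thin limbs hold few. Several complex IV subunits exist as a ubiquitous isoform and a second isoform known from heart and skeletal muscle (Cox6a2, Cox7a1, Cox8b), lung and hypoxic cells (Cox4i2) or testis (Cox6b2, Cox7b2, Cox8c).

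The isoform pairs described later moved apart from each other, so the 250 bases before the transcription start are shown for both members of the Cox7a and Cox6b pairs and for Cox6a1, chosen after their values were seen. Sequences are from RefSeq (GRCm38.p6), 5′ to 3′ on the gene's own strand, with capitals marking the motif letters found in them. Of the 68 members, 53 were matched by symbol.
Cox7a1 (chr7:30183921-30184170, plus strand): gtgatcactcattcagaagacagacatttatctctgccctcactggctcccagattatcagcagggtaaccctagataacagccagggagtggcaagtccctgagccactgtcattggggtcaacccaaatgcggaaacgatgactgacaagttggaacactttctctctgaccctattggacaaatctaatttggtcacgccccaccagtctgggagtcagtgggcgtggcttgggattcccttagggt
Cox7a2 (chr9:79759854-79760103, minus strand): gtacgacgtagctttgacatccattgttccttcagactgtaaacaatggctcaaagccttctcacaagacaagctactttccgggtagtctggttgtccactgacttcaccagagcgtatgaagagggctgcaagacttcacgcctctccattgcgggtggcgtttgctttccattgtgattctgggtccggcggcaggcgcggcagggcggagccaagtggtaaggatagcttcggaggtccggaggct
Cox6b2 (chr7:4753095-4753344, minus strand): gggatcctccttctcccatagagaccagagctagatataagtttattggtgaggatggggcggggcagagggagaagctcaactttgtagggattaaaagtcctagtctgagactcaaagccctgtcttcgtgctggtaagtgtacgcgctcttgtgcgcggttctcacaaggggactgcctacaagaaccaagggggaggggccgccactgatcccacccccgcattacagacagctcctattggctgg
Cox6b1 (chr7:30626115-30626364, minus strand): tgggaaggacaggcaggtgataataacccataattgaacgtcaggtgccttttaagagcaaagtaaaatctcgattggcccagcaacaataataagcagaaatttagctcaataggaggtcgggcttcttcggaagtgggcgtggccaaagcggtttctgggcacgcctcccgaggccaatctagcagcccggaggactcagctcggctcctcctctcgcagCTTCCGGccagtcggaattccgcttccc
Cox6a1 (chr5:115348959-115349208, minus strand): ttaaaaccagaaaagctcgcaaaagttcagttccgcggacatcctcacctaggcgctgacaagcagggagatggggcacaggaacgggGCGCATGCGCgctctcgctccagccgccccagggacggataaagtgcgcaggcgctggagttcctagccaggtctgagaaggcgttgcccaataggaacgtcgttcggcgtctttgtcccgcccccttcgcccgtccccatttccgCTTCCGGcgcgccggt
The motifs were searched on both strands as exact letters. The core of the NRF1 motif, GCATGCGC, occurred in 5 of the 53 members (9.43%) and in 741 of 32851 promoter windows of the same length (2.26%). The median GC content was 56.0% in the members' windows and 52.4% in all windows, and its part in the motif shares was not tested. The ETS motif CCGGAAG occurred in 8 members (15.1%) and 2269 windows (6.91%), the ERR motif AAGGTCA in 3 members (5.66%) and 1340 windows (4.08%), and the E box CAGCTG in 5 members (9.43%) and 4271 windows (13.0%). Of the windows printed, Cox6a1 held the NRF1 core once on each strand, overlapping, and the ETS letters on the reverse strand, Cox6b1 held the ETS letters on the reverse strand, and Cox7a1, Cox7a2 and Cox6b2 held none of them. Members missing from the promoter table included Cox4i1, Cox4i2, Cox6a2, Cox6c, Cox6c2, Cox8c, Cyc1, Ndufa2, Ndufb9, Ndufs1, Sdhc, Uqcrb, Uqcrc2 and Uqcrq.

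Some libraries stood apart before any member was considered. Between 274 and 925 odorant and vomeronasal receptor genes reached 1 TPM in each GL, DTL1, DTL2 and DTL3 mouse and in ATL mice 4 and 6, and 76 to 253 did so in OMCD, against at most 33 in every other mouse. Segment markers were highest where the label puts them for the proximal tubule (12080 to 13246 TPM summed over 7 genes in PTS1), the thick limb (42000 to 47613 in CTAL), the distal convoluted tubule (11585 to 14789 in DCT) and the thin limbs (12009 to 12997 in DTL3). Podocyte markers summed to 9566 to 11292 TPM in GL. Endothelial genes summed to 6331 to 6642 TPM in GL and 3467 to 4705 in DTL1. The part of these signals in the results was not tested.

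Summed over the members, respiratory chain transcripts made up 10.8% of all TPM in MTAL and 2.14% in GL. The summed level was 102048, 105961 and 115807 TPM in the MTAL mice, and from 89562 to 100548 in CTAL and 86256 to 89855 in DCT. It was 76455 to 81371 in PTS1, 54612 to 57860 in PTS2 and 57153 to 67966 in PTS3. The thin limbs were split: DTL2 held 77008, 81778 and 81188 TPM, while DTL1 had 31938 to 34822, DTL3 34221 to 45694 and ATL 14562 to 25825. Along the collecting system the mean was 69127 ± 2978 (SD, n = 3) in CNT, 63787 ± 3031 (n = 5) in CCD, 50398 ± 1836 (n = 4) in OMCD and 36245 ± 3836 (n = 3) in IMCD, with CNT and CCD overlapping. GL (20727, 21356 and 22113 TPM) and ATL shared the bottom and overlapped. DTL2 overlapped PTS1, and OMCD lay apart from its neighbours. These orders, and the highest and lowest groups named or counted below, are for levels as deposited, and some rest on scaling. The size factors of a rescaling by median ratios, by which levels are divided, averaged 0.616, 0.697 and 0.601 in PTS1, PTS2 and PTS3. They averaged 0.895 in MTAL and 1.22 in DTL2. Divided by them, the mean sum of PTS1 passes that of MTAL, and that of DTL2 falls below PTS1, PTS2 and PTS3.

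**Figure D1:**
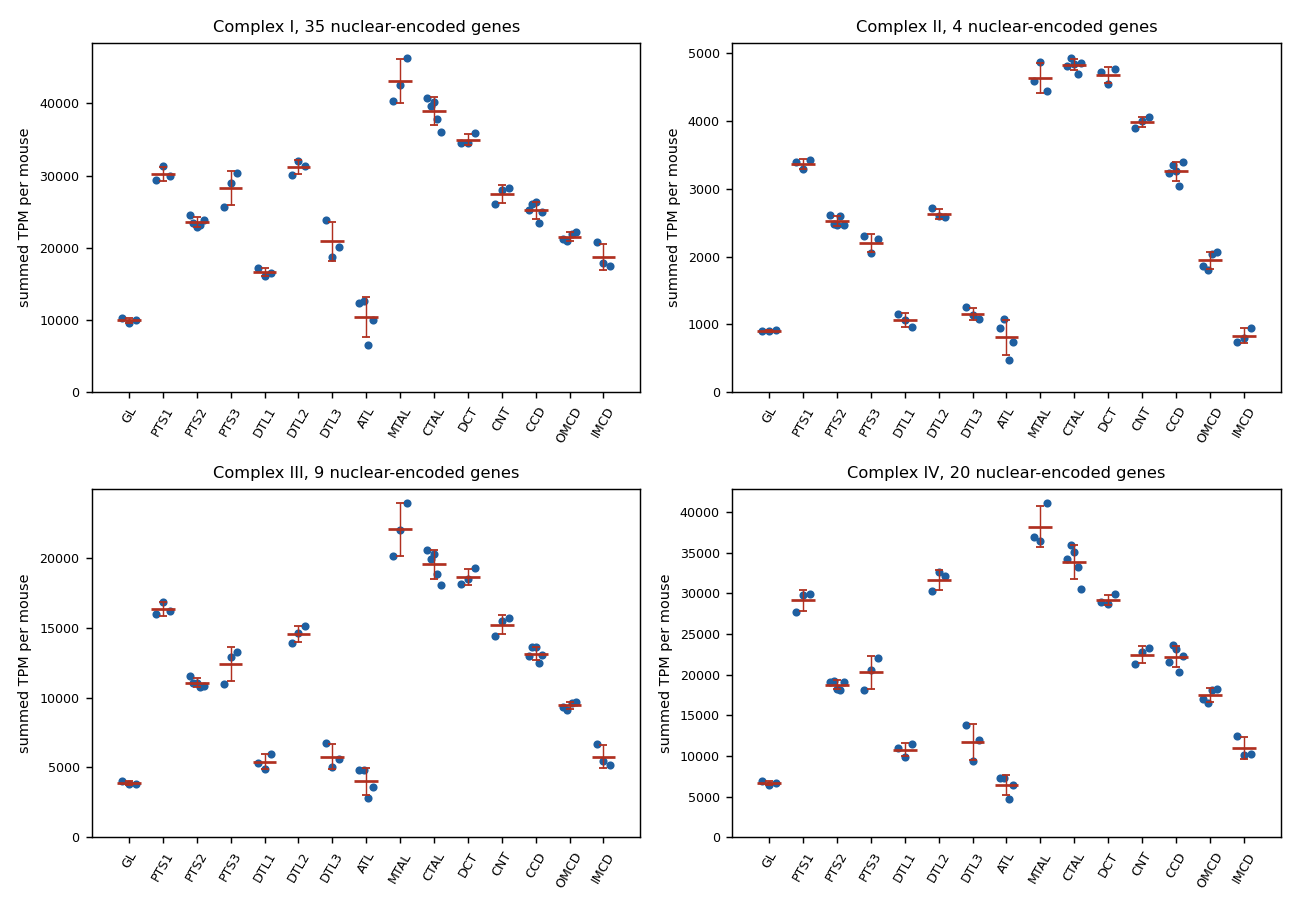
Summed TPM of the nuclear-encoded genes of complexes I to IV (y axis) in each group (x axis); points are mice, red lines are means and bars are SD. As deposited, MTAL is highest for complexes I, III and IV, CTAL is highest for complex II, and DTL2 stands above DTL1 and DTL3 in every panel. Division by the median-ratio size factors (means of 0.616 in PTS1, 0.895 in MTAL and 0.947 in CTAL) brings PTS1 level with or above MTAL and CTAL.

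Complex I made up 38.2% of the summed TPM in PTS1 and 53.0% in DTL3, complex IV 29.5% in DTL3 and 39.5% in DTL2, complex III 14.6% in DTL3 and 22.0% in CNT, and complex II 2.31% in IMCD and 5.77% in CNT. Of the 61 members with a mean of at least 50 TPM, 34 had their highest group mean in MTAL, 9 in CTAL, 8 in DTL2, 5 in PTS1, 3 in DCT, and 1 each in DTL3 and CNT. The lowest group mean was in ATL for 28 of them, in GL for 27, in IMCD for 5 and in PTS2 for 1. The range of log2 group means had a median of 2.54, from 1.13 for Ndufa7 to 7.96 for Cox7a1. Across the 15 group means, which share libraries and depth, 36 of the 61 had a correlation above 0.9 with the average of the members tested, a description with no test since each gene is part of that average. Lower values were found for Cox7a2l (0.34), Ndufa7 (0.58) and Ndufb8 (0.60).

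**Figure D2:**
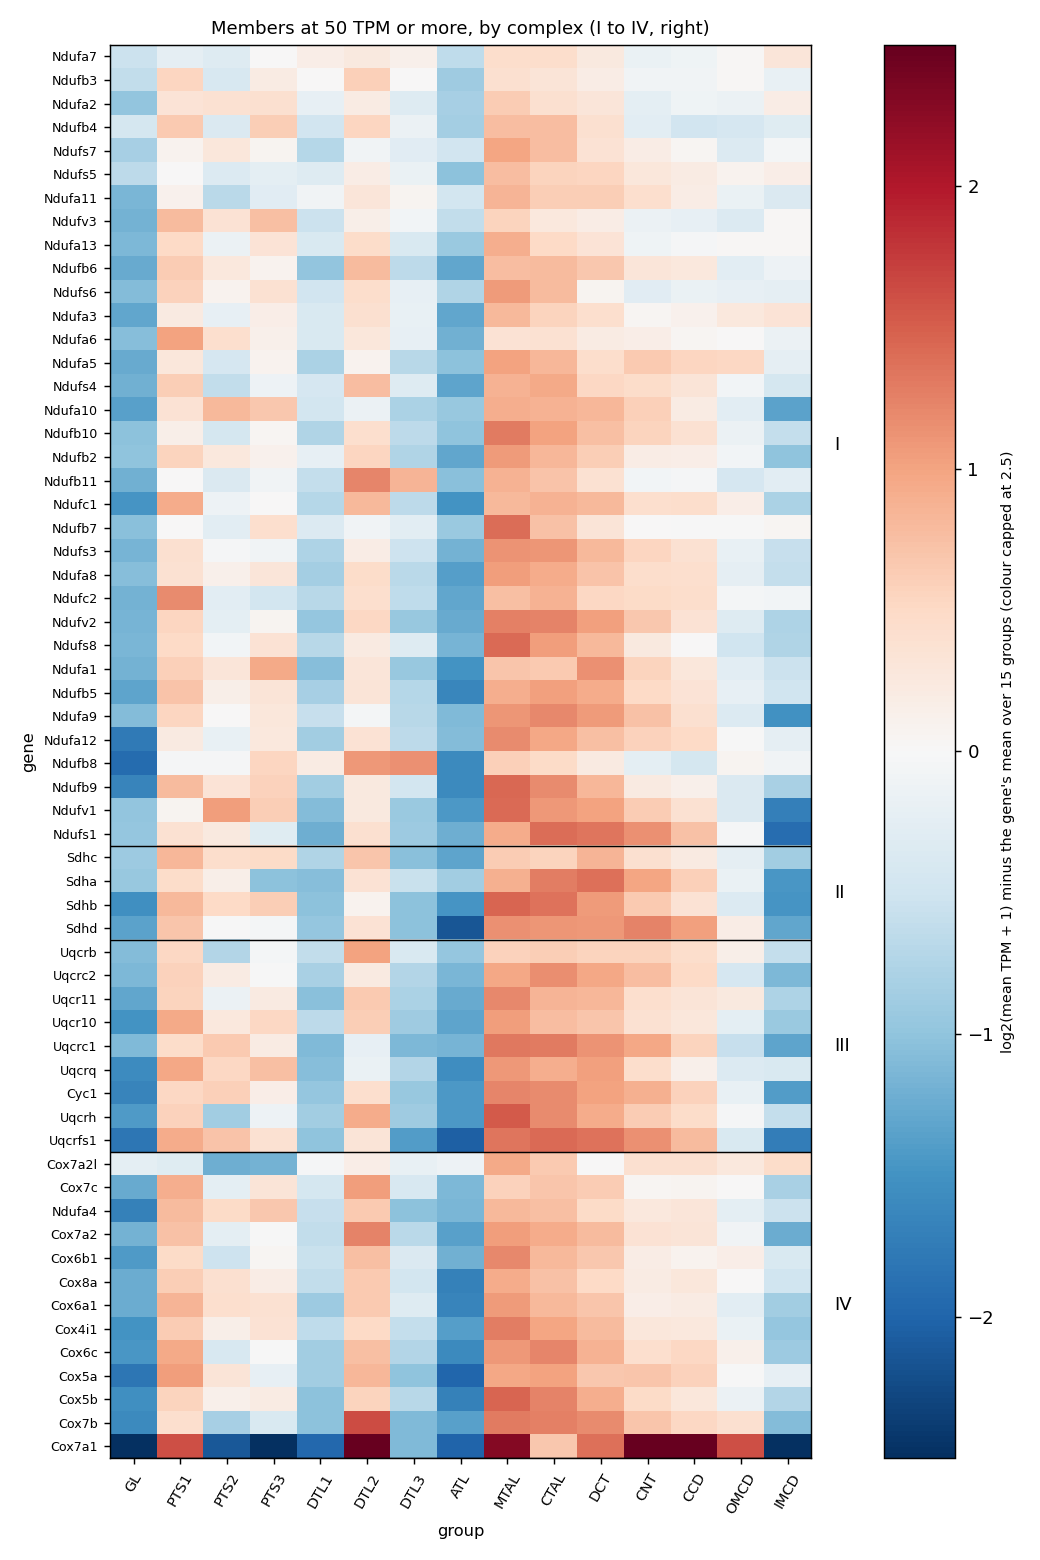
Group means of 60 of the 61 members at 50 TPM or more as log2(mean TPM + 1) minus the gene's mean over 15 groups (colour, capped at 2.5), by gene (rows, grouped by complex) and group (columns). As deposited, most rows are high in MTAL, CTAL and DCT and low in GL and ATL, whereas Ndufb8 is highest in DTL2 and DTL3 and Cox7a1 has the widest range. Divided by the median-ratio size factors (0.601 in PTS3, 1.22 in DTL2 and 1.36 in DTL3), Ndufb8 is higher in PTS3 than in DTL2 and DTL3.

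Members were tested with limma on log2(TPM + 1) with Benjamini-Hochberg adjustment over 33793 genes, and 67 of the 68 passed a filter of 1 TPM in at least 3 mice, Cox8b being the exception. Segments were called mitochondria-rich or mitochondria-poor from textbook knowledge, with IMCD, which the account above does not cover, placed on the poor side. As deposited, DTL2 goes against its label, with summed member TPM above PTS2 and PTS3 and overlapping PTS1. Divided by the median-ratio size factors, its mean sum falls below those of PTS1, PTS2 and PTS3 but stays above those of DTL1, DTL3, ATL and IMCD. An adjusted p under 0.05 was the call, and all 67 were called in a test of any difference among the 15 groups, as were 93.9% of all genes. In the mean of the mitochondria-rich segments (PTS1, PTS2, PTS3, MTAL, CTAL, DCT) minus the mean of the mitochondria-poor ones (DTL1, DTL2, DTL3, ATL, IMCD), 60 members were higher and 4 lower, against 8.73% and 79.8% of all genes. With a difference of at least 1 log2 unit, 37 were higher and 1 lower, against 3.51% and 29.2% of all genes. The median difference was 1.10 for the members and -0.66 for all genes. It was 1.75 against -0.47 after rescaling by median ratios, which gave 64 members higher and 3 lower, and 0.76 against -0.12 after quantile normalization, which left 20 members higher and 1 lower by a log2 unit. Of all genes called, 9.86% were higher in rich segments, and 20.8% and 37.7% after these rescalings. With ATL mice 2 and 3 and IMCD alone as the poor side, chosen after seeing the data for their low receptor gene counts, 62 members were higher and 1 lower, and without DTL1 59 and 4. Without DTL2, also chosen after seeing the data, 62 were higher and 3 lower, of which 44 and 1 by at least 1 log2 unit. Among marker lists of other cell types, 9 of 10 endothelial markers were lower in rich segments and 0 higher (median -1.71, and -0.99 with 9 lower and 1 higher under quantile normalization), and all 7 intercalated cell markers were higher (median 1.43, and 1.77). The part of these cells in the members' difference was not tested. Principal cell markers split into 4 higher and 3 lower as deposited and under both rescalings (medians 0.83, 1.15 and 1.39), and leukocyte markers into 3 and 3 (0.26, and 4 higher and 0 lower, 1.24, under quantile normalization). For the lists that follow, the counts rested on scaling: 8 of 12 mural markers were lower (-0.49, turned to 4 higher and 0 lower, 0.27, under quantile normalization), 5 of 6 podocyte (-0.92, then 3 lower and 1 higher), 7 of 7 tested striated muscle (-0.78, then 3 lower), 5 of 6 tested adipocyte markers (-0.56, then 2 lower and 1 higher) and 4 of 5 tested germ cell markers (-0.42, then 1 lower and 1 higher).

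Complex II and III led the difference between rich and poor segments: all 4 and all 9 of their members were higher, with medians of 1.5 and 1.37 log2 units, although Uqcrb flipped from 0.57 to -0.12 under quantile normalization. The median was 0.92 for the 35 of complex I, of which 34 were higher, and 0.89 for the 19 of complex IV, with 13 higher and 4 lower. Quantile normalization also turned Ndufa11, Ndufa3, Ndufb8 and Cox6b1 to below 0. Uqcrfs1, the Rieske iron-sulphur protein of complex III, had the largest positive difference, at 2.21 ± 0.05 (SE) log2 units (limma adjusted p = 3.9e-34), with means of 1095 and 277 TPM. It was 1152, 1434 and 1391 TPM in the MTAL mice and 83.3 to 168 in the 4 ATL mice, which did not overlap. Sdhb, the iron-sulphur subunit of complex II, had 1334 and 364 TPM (1.98 ± 0.07, adjusted p = 1.07e-27) and Ndufv1, which carries the NADH-binding site, was 1.90 log2 units higher. Uqcr11, the most abundant complex III gene, had 4692, 4915 and 5765 TPM in MTAL and at most 1317 in ATL. Sdhc, the least variable complex II gene, was 399 to 417 TPM in DCT and 66.8 to 108 in ATL. Ndufa7 was 343 to 741 TPM in ATL and 1180 to 1306 in CTAL, and its rich minus poor difference of 0.07 ± 0.06 did not pass (limma adjusted p = 0.228). That rested on scaling, since it was 0.73 and called after median-ratio rescaling (adjusted p = 4.19e-16) and -0.47 and called under quantile normalization (adjusted p = 2.9e-13).

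**Figure D3:**
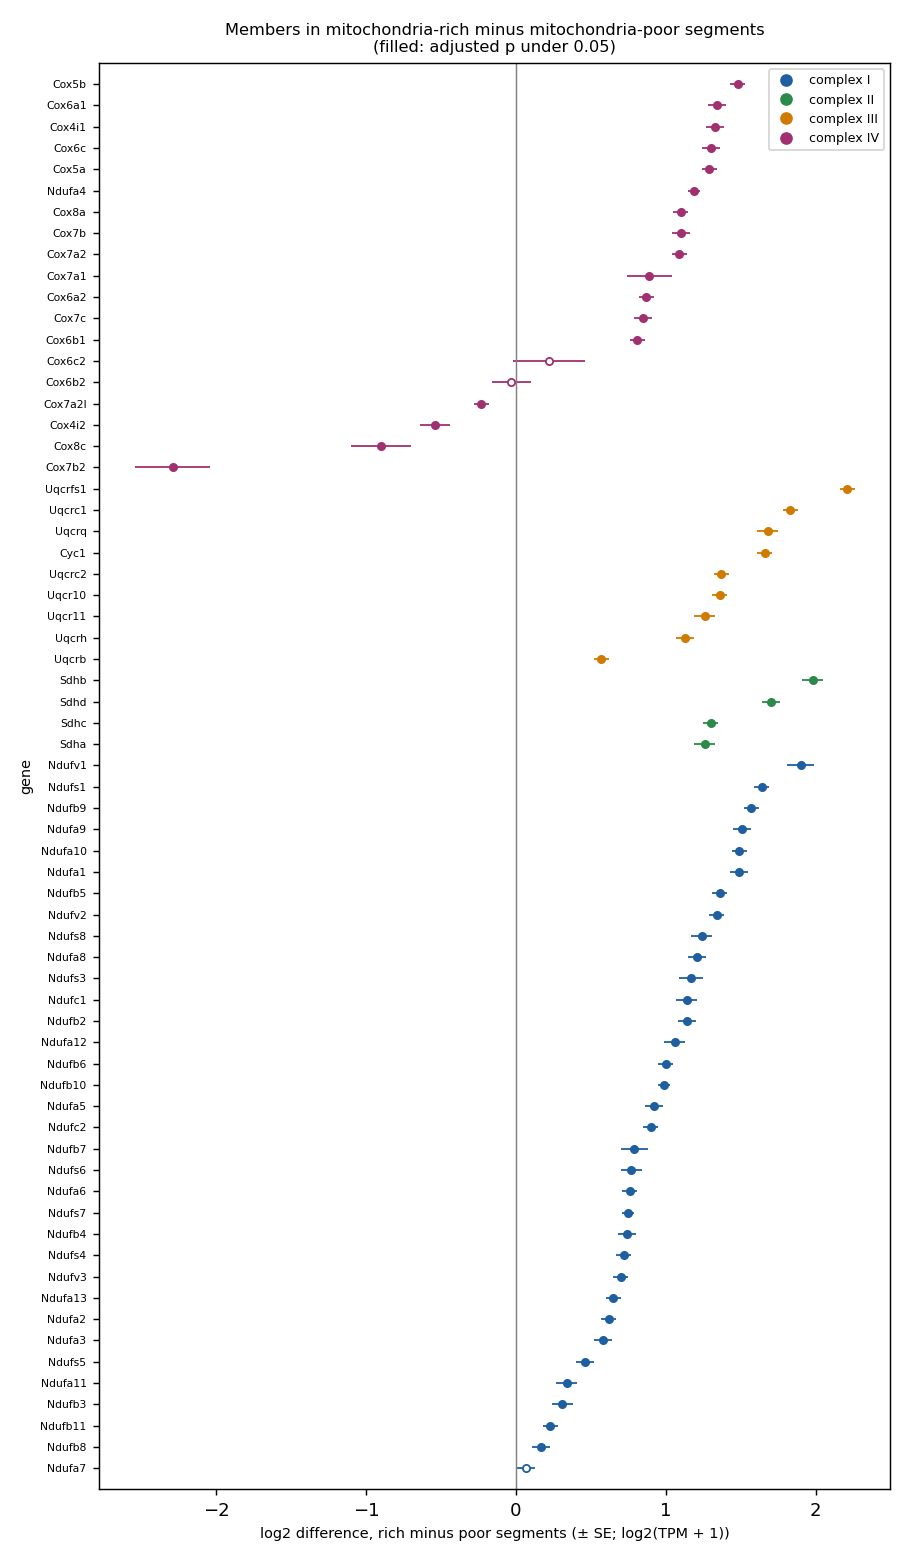
Log2 difference of 66 of the 67 tested members between mitochondria-rich and mitochondria-poor segments (x axis, ± SE; filled where the adjusted p is under 0.05), by gene (y axis) and complex (colour). Complex II and III genes lie between 0.57 and 2.21 (Uqcrb flips to -0.12 under quantile normalization, as do Ndufa11, Ndufa3, Ndufb8 and Cox6b1 to below 0), and the 4 lower genes are Cox7b2, Cox8c, Cox4i2 and Cox7a2l, of which Cox7a2l flips to 0.42 under median-ratio rescaling and Cox7a2l and Cox4i2 flip to 0.12 and 0.01 under quantile normalization.

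Of the 4 members lower in rich segments, Cox7b2 (-2.29 ± 0.25), Cox8c (-0.90 ± 0.20) and Cox4i2 (-0.54 ± 0.10, and 0.01 under quantile normalization) are alternative isoforms at low levels, taken up with their pairs. The other was Cox7a2l, also called SCAF1, which joins complexes III and IV into supercomplexes. The Cox7a2l means of 107 and 110 TPM differed by -0.23 ± 0.05 log2 units (adjusted p = 0.000236), and the sign flipped under median-ratio rescaling (0.42) and quantile normalization (0.12). It was 41.7 to 46.8 TPM in PTS2 and 43.3 to 48.2 in PTS3, below 84.3 to 84.7 in PTS1 and 189 to 209 in MTAL. Ndufb8, a complex I accessory subunit, was 6217, 5338 and 5163 TPM in the DTL3 mice, 4999 to 5718 in DTL2 and 637 to 701 in GL. Its difference between rich and poor segments was 0.17 ± 0.06 (adjusted p = 0.00857) on the log2 scale and -0.66 under quantile normalization, a flip, although its means were 3165 and 3419 TPM.

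In proximal segments against MTAL, CTAL and DCT, 3 members were higher and 56 lower, a split that median-ratio rescaling turned to 15 and 30. The background was 9.17% and 26.8% of all genes. Under that rescaling 17 of the 67 tested members flipped sign, 13 of them called before it, among them Ndufb8, Cox6a1 and Cox8a. Of the marker lists of other cell types, 10 of 10 endothelial markers were lower in proximal segments (median -1.78), as were 5 of 7 leukocyte (-2.44) and 7 of 7 intercalated cell markers (-2.17), with none higher, and these counts were the same after that rescaling. Their part in the members' difference was not tested. Medians were -0.63 for the members and 0.01 for all genes, and -0.13 and 0.07 after that rescaling. Sdha, the flavoprotein of complex II, differed most in complex II, with 635 TPM in proximal and 1474 in the thick limb and DCT (-1.32 ± 0.09, limma adjusted p = 1.34e-17). Cox7b had 649 and 1736 TPM (-1.51 ± 0.07, adjusted p = 1.37e-22) and Ndufs1, the largest core subunit of complex I, had 268 and 576 (-1.12 ± 0.07). These 3 kept direction and call after both rescalings. Ndufa6 (0.19 ± 0.06) and Ndufv3 (0.30 ± 0.07) were higher in proximal segments but lost the call under quantile normalization, and the muscle isoform Cox6a2, which passed the filter on low values through PTS1 alone, was the third member higher.

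Within the proximal tubule, PTS3 minus PTS1 gave 2 members higher and 30 lower, against 6.92% and 10.4% of all genes. Medians were -0.36 for the members and -0.18 for all genes. After median-ratio rescaling they were -0.32 and -0.29, so the members lay close to all genes, with 3 higher and 29 lower. Quantile normalization gave 3 higher and 26 lower and lost 6 calls. Intercalated cell markers summed to 1180 to 1413 TPM in PTS1, where 3 of 7 reached a mean of 1 TPM, and 4.12 to 5.0 in PTS3. Podocyte markers summed to 13.2 to 15.7 and 1.52 to 3.38, and leukocyte markers to 9.88 to 16.9 and 1.53 to 6.89. Endothelial markers summed to 41.5 to 106 in PTS1 and 87.3 to 174 in PTS3. The part of these signals was not tested. Sdha was 353, 275 and 319 TPM in PTS3 and 912, 812 and 918 in PTS1 (-1.48 ± 0.16, limma adjusted p = 5.32e-10), with no overlap. Its partner Sdhb was 973 to 1046 and 1143 to 1174 TPM (-0.19 ± 0.17, adjusted p = 0.601), so the ratio of Sdha to Sdhb was 0.337, 0.283 and 0.307 in PTS3 and between 0.549 and 1.96 in every other mouse. Ndufc2 fell from 850 to 273 TPM (-1.64 ± 0.12, adjusted p = 9.14e-15), while Ndufb8 rose from 2466 to 3692 (0.58 ± 0.15, adjusted p = 0.00316) and Ndufa10 by 0.31 (adjusted p = 0.0497).

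**Figure D4:**
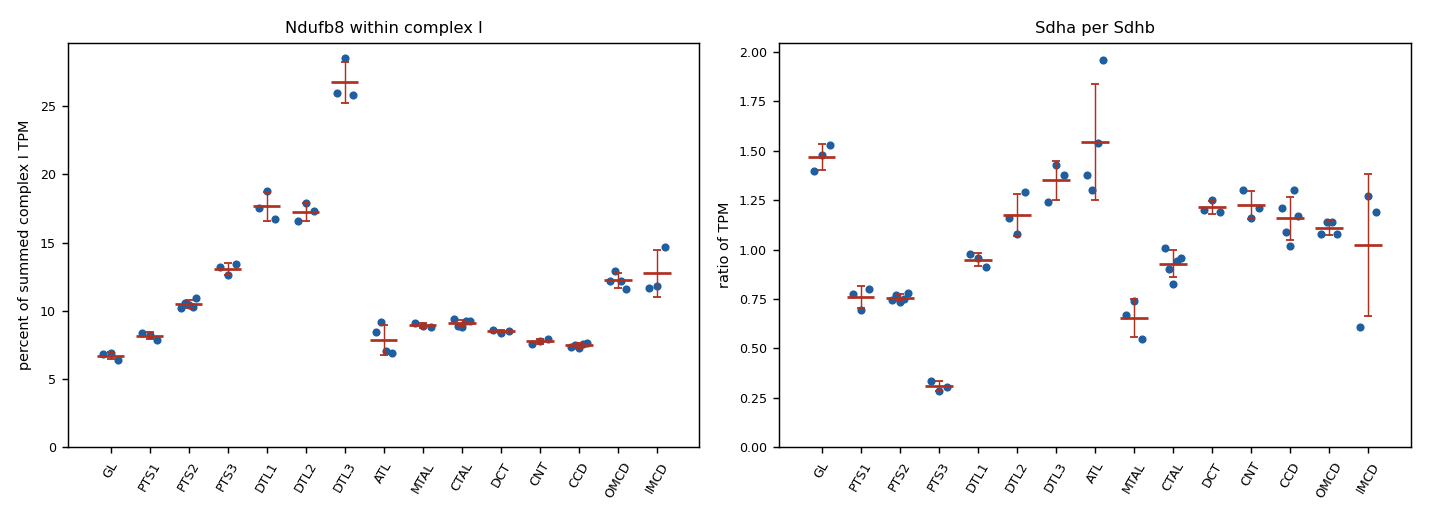
Ndufb8 as a percent of summed complex I TPM (left) and the ratio of Sdha to Sdhb TPM (right) in each mouse by group; red lines are means and bars are SD. Ndufb8 makes up 25.8 to 28.5% of complex I TPM in DTL3 and 6.4 to 6.89% in GL, and the PTS3 ratio is the lowest of all groups.

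Ndufb8 stood at 25.8 to 28.5% of complex I TPM in DTL3, 16.6 to 17.9% in DTL2, 16.7 to 18.8% in DTL1 and 7.29 to 7.64% in CCD. A single scaling factor per library leaves these shares as they are, which does not hold for quantile normalization. Ndufb11, an X-linked accessory subunit, showed a ratio to Ndufb10 of 1.92, 1.49 and 1.78 in DTL3, 1.03 to 1.09 in DTL2 and at most 0.807 elsewhere. Ndufb11 and both ratios were picked out after their values were seen and were not tested. Of the 50-base words in Ndufb8 transcripts 2.7% occur in another gene, and of those in Ndufb11 17.5%.

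DTL2 against PTS3, which precedes it in long loops, gave 32 members higher and 8 lower, against 51.9% and 5.54% of all genes, so the share of members higher was not above that background. Medians were 0.28 for the members and 0.71 for all genes. This direction rested on scaling: median-ratio rescaling gave 7 higher and 47 lower with medians of -0.68 and 0.48, and 34 of the 67 tested members flipped sign, 19 of them called before it. Quantile normalization gave 41 higher and 3 lower, and leaving out the mitochondrial genome rows 26 and 13. The 7 members still higher after median-ratio rescaling were Cox7a1, Cox6b2, Cox7b2, Cox4i2, Cox7b, Sdha and Cox7a2l. Cox7b, a ubiquitous complex IV subunit, was 2103 to 2334 TPM in DTL2 and 477 to 611 in PTS3 (2.01 ± 0.14, limma adjusted p = 6.61e-17). Uqcrb, a small complex III subunit, was highest in DTL2 as deposited (2667 to 3202 TPM). MTAL minus ATL, the change from thin to thick ascending limb, had 61 members higher and 1 lower, against 8.83% and 39.4% of all genes, and a median of 2.28 against -0.48 for all genes. The lower member was Cox7b2. With ATL mice 2 and 3 alone 61 were higher and 0 lower, and with ATL mice 4 and 6 alone 61 and 3. Cox5b (3.18) and Sdhd (3.36) were among the largest differences.

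Neighbours of the distal nephron differed in 7 members between CTAL and MTAL, 12 between DCT and CTAL and 24 between CNT and DCT. CTAL minus MTAL had 2 members higher and 5 lower (background 4.89% and 1.73%). Ndufs1 (0.47 ± 0.12) and Cox6b2 were higher, and without MTAL mouse 3 the count was 2. Median-ratio rescaling gave 3 higher and 11 lower. DCT minus CTAL had 1 higher and 11 lower (3.08% and 4.78%), with Ndufa1 higher by 0.49, and median-ratio rescaling gave 2 higher and 3 lower. Leaving out CTAL mouse 2 or 3, or DCT mouse 1, 2 or 3 left 6, 6, 6, 5 and 5 calls. CNT minus DCT had 2 higher, Cox7a1 and Cox7a2l, and 22 lower (8.79% and 2.2%), and 52 lower and 0 higher after median-ratio rescaling. Without DCT mouse 2, DCT mouse 3, CNT mouse 1 or CNT mouse 2 there were 14, 10, 9 and 15 calls. Intercalated cell markers summed to 1497 to 1596 TPM in DCT and 9510 to 9808 in CNT. Principal cell markers summed to 1109 to 1249 and 12701 to 16518, and the part of these cells in this step was not tested. Sdhd, the membrane anchor of complex II, was highest in CNT as deposited (1328, 1405 and 1347 TPM), overlapping MTAL (1184 to 1384). Divided by the median-ratio size factors (1.12 in CNT, 0.895 in MTAL and 0.616 in PTS1), its mean in CNT falls below MTAL and PTS1.

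At both steps down the collecting duct more members were lower than higher. OMCD minus CCD had 2 higher, Ndufb8 and Cox7b2, and 40 lower (background 23.6% and 4.62%), with medians of -0.40 for the members and 0.30 for all genes. Quantile normalization gave 4 higher and 30 lower and lost 11 of these calls, among them Cox7b2 (2.05, and 1.20 with adjusted p = 0.129). Uqcrfs1 was at 399 and 903 TPM (-1.18 ± 0.11, limma adjusted p = 7.71e-12). Endothelial markers summed to 509 to 657 TPM in OMCD and 181 to 288 in CCD, mural markers to 24.6 to 42.3 and 7.24 to 11.9, and intercalated cell markers to 5264 to 6713 and 7183 to 8591. Between 76 and 253 receptor genes reached 1 TPM in OMCD and 1 to 2 in CCD, and the part of these signals in this step was not tested. IMCD minus OMCD had 3 higher and 38 lower (6.9% and 24.8%), and 7 higher and 29 lower after median-ratio rescaling. Its medians were -0.52 for the members and -0.32 for all genes, and -0.25 and -0.23 after that rescaling, under which the members lay close to all genes. Ndufs1 fell furthest of complex I, from 210 to 275 TPM in OMCD to 56.6, 58.4 and 79.5 in IMCD (-1.89 ± 0.12, adjusted p = 4.24e-17). The higher ones were Ndufv3 (0.37), Ndufa2 (0.32) and Ndufs7 (0.30). Sdha, Sdhb, Sdhc and Sdhd were all lower in IMCD, Sdhd at 234 against 656 TPM (-1.52 ± 0.14). From OMCD to IMCD the intercalated cell markers went to 86.4 to 118 TPM, endothelial markers to 41.5 to 342 and mural markers to 5.16 to 8.33. Thin limb markers, at 121 to 151 in OMCD, went to 1537 to 2927. Thick limb markers were at 758 to 1842 TPM in OMCD and 0.57 to 0.93 in IMCD. Leukocyte markers were at 33.7 to 85.7 and 1.78 to 2.38. The part of these signals in this step was not tested.

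The glomerulus had 4 members higher and 62 lower than the mean of the tubule segments, against 64.2% and 8.2% of all genes. The median was -1.26 for members and 0.69 for all genes, and -1.17 and 0.03 after quantile normalization. Ndufb8 (666 and 3052 TPM, -2.05 ± 0.11), Uqcrfs1 (148 and 744 TPM, -1.93 ± 0.09, limma adjusted p = 4.53e-22) and Cox5a (261 and 1162 TPM, -1.93 ± 0.08) were lower by the most after Cox7a1 (-3.77 ± 0.27). The higher members were Cox4i2, Cox7b2, Cox8c and Cox6b2, and Cox7b2, Cox8c and Cox6b2 were not called after quantile normalization.

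The ubiquitous isoforms Cox4i1, Cox6a1, Cox6b1, Cox6c, Cox7a2, Cox7b and Cox8a each had their lowest group mean in GL or ATL. As deposited, Cox4i1 (416 to 988 TPM in ATL and 4490 to 4937 in MTAL), Cox8a (494 to 907 and 4455 to 5093), Cox6a1 and Cox6b1 were highest in MTAL and Cox6c in CTAL. Cox7a2 and Cox7b were highest in DTL2, with means of 2927 and 2252 TPM against 2567 and 1810 in MTAL. Divided by the median-ratio size factors, Cox7a2 and Cox7b are lower in DTL2 than in MTAL. PTS1 then passes the group named for Cox8a, Cox6a1, Cox6c and Cox7a2. Among the pairs, the Cox7a pair changed its make-up most in percentage points. Cox7a1, the heart and muscle isoform, was 1544, 1431 and 1616 TPM in DTL2, and its partner Cox7a2 was 2701, 3065 and 3015. The share of Cox7a1 in the pair was 31.8 to 36.4% in DTL2, 24.3 to 26.2% in CNT, 26.1 to 29.8% in CCD and 15.6 to 20.3% in OMCD. It was 11.7 to 15.7% in MTAL, 10.2 to 13.1% in PTS1, 9.04 to 10.1% in DCT and 3.85 to 6.36% in CTAL. It was 4.14 to 5.2% in DTL3, 3.51 to 4.39% in ATL, 0.445 to 4.56% in DTL1, 1.29 to 2.32% in PTS2, 0.335 to 0.962% in PTS3 and 1.57 to 1.99% in IMCD. The DTL2 mice lay above all others, CNT and CCD overlapped, and Cox7a2 was the larger partner in all 53 mice. Among the 14 tubule groups the share differed with F = 235 (permutation test, adjusted p = 3.5e-05 over 7 pairs, resting on the smallest p that 100000 resamples can give). The difference between the glomerular mean of 1.24% and the tubule mean of 11.5% did not pass (two-sided exact permutation test, adjusted p = 0.108), whereas with log2 ratios and pseudocounts of 1 or 0.1 the adjusted p was 0.0382 and 0.0322. That test pools the mice of all 14 tubule groups, so the spread between segments enters its p-values.

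Levels of Cox7a1 alone gave wide differences between neighbours. From PTS3 (4.56, 11.7 and 4.71 TPM) to DTL2 the limma difference was 7.96 ± 0.37 log2 units (adjusted p = 2.5e-22), and PTS3 minus PTS1 (243, 249 and 302 TPM) was -5.43 ± 0.37 (adjusted p = 3.31e-16). IMCD (8.72 to 10.4 TPM) minus OMCD (204 to 315) was -4.66 ± 0.35 (adjusted p = 4.75e-15). Within each of these comparisons the groups did not overlap. CTAL (93.2 to 170 TPM) minus MTAL (328 to 503) was -1.62 ± 0.33 (adjusted p = 0.000719). CNT (472 to 598) minus DCT (209 to 234) was 1.25 ± 0.37 (adjusted p = 0.0188), a call lost after both rescalings (0.91 and 0.98), and OMCD minus CCD was -1.16 ± 0.31 (adjusted p = 0.00411), a call lost under quantile normalization although the difference stayed at -1.06 (adjusted p = 0.06). In DTL2 striated muscle markers summed to 5.26 to 9.55 TPM, with 2 of 10 at 0 in every mouse, against 0 to 0.03 in PTS3 and 17.5 to 25.1 in DTL1, and mural cell markers to 16.4 to 30.4, against 11.6 to 18.7 in PTS3 and 786 to 1074 for mural cells in GL, where Cox7a1 was 4.75 to 8.95. Other marker lists also stood higher in DTL2 than in PTS3. The 7 adipocyte markers summed to 288 to 406 TPM in DTL2, nearly all of it Fabp4 (338 ± 59.4, SD, n = 3), 18.4 to 34.1 in PTS3 and 300.0 to 555 in DTL1, where Cox7a1 made up at most 4.56% of its pair. The 10 endothelial markers summed to 1365 to 2458 TPM in DTL2, 87.3 to 174 in PTS3 and 3467 to 4705 in DTL1, and the 7 leukocyte markers to 32.3 to 46.9 in DTL2 and 1.53 to 6.89 in PTS3. Intercalated cell markers summed to 285 to 294 TPM in DTL2, where Car2 (289 TPM) was the 1 of 7 that reached a mean of 1 TPM, and to 9510 to 9808 in CNT, where all 7 did. The part of these cells in the Cox7a1 levels was not tested. Ppargc1a, a coactivator of mitochondrial biogenesis named after its values were seen, had means of 266 TPM in MTAL, 231 in DTL2, 204 in CTAL, 146 in CNT and CCD, 50.3 in PTS1, 10.8 in IMCD and 1.69 in PTS3. CTAL, above CNT for Ppargc1a, was below it for Cox7a1 (93.2 to 170 against 472 to 598 TPM). The remaining groups are not listed, and the part of Ppargc1a in the Cox7a1 levels was not tested.

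Cox6a2, the muscle partner of Cox6a1, was 24.5, 44.4 and 27.4 TPM in PTS1 and at most 0.295 in every other mouse. Its PTS1 mean was 4.89 log2 units above the next group. Since it reached 1 TPM in the 3 PTS1 mice alone and so entered the limma fit through the group where it was high, this margin and its calls between PTS1 and other groups are a description and support nothing. Of the other tested members, none was higher in 1 group than in every other by at least 1 log2 unit in a limma intersection-union test that 8.8% of all genes passed. Cox6a1 was 4181 to 4592 TPM in PTS1, so the share of Cox6a2 was 0.583, 0.995 and 0.594% there. Striated muscle markers summed to 1.93 to 2.53 TPM in PTS1, with 1 of 10 at 0 in every mouse. They summed to 0.02 to 0.115 TPM in PTS2, 0 to 0.03 in PTS3, 15.5 to 28.2 in GL and 17.5 to 25.1 in DTL1. Cox6a2 was listed at 0 in every GL and DTL1 mouse, and the part of muscle cells in its level was not tested. Cox7a1 in DTL2 (margin 1.39, adjusted p = 0.0847) passed without PTS3 mouse 1 or 2 or DTL1 mouse 3 or 5 (adjusted p of 0.0454, 0.0366, 0.0379 and 0.00134) and with a pseudocount of 5 (0.00198). Cox8c in DTL1 passed without DTL1 mouse 3, Cox7b2 in DTL1 with ATL mice 2 and 3 alone, Cox4i2 in GL without GL mouse 1, and Cox6b2 in PTS1 after median-ratio rescaling.

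Cox4i2 was 6.05, 7.1 and 8.95 TPM in GL, 2.98 to 3.75 in DTL2, and at most 2.1 in any other mouse, while Cox4i1 was 665 to 723 in GL. Its share was 1.04% ± 0.164 (SD, n = 3) in GL and 0.0249% as the mean of tubule mice, a difference of 1.02 percentage points (two-sided exact permutation test, adjusted p = 0.000149, from the smallest p of 23426 assignments). In limma the level was 2.62 ± 0.18 log2 units above the mean of tubule segments (adjusted p = 1.45e-16). Also high in GL were mural (786 to 1074 TPM), podocyte (9566 to 11292) and endothelial markers (6331 to 6642), with 403 to 898 receptor genes at 1 TPM. The part of these signals was not tested. DTL1, with 753 to 925 receptor genes and mural markers at 55.1 to 78.8 TPM, had 0.15 to 1.2 TPM of Cox4i2. DTL2, with mural markers at 16.4 to 30.4 TPM, had 2.98 to 3.75. Shares also differed among tubule segments (F = 3.03, permutation test, adjusted p = 0.00952, with F at 4.68, 4.68 and 6.1 without ATL mouse 2, 3 or 6).

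Cox6b2, the testis partner of Cox6b1, was present more widely: 37.3, 49.2 and 59.2 TPM in PTS1, 24.1 to 41.8 in OMCD, 26.4 to 40.0 in CCD, 26.1 to 40.6 in CTAL and 26.7 to 28.1 in GL. It was also 20.9 to 36.8 TPM in DTL2 and 25.0 to 28.8 in DTL1. It was 0.64, 0.765 and 2.04 TPM in PTS3 and 1.76 to 5.56 in IMCD. Cox6b1 was 818 to 929 TPM in GL, and the Cox6b2 share was highest there, at 2.83 to 3.33%, against a tubule mean of 0.793% (exact permutation test, adjusted p = 0.000149). PTS3 minus PTS1 was -4.70 ± 0.31 log2 units (limma adjusted p = 1.01e-16) and IMCD minus OMCD -3.15 ± 0.29 (adjusted p = 3.23e-12), with no overlap. CTAL minus MTAL was 1.09 ± 0.28 and DCT minus CTAL -1.01 ± 0.28, calls that quantile normalization lost (0.86 and -0.85). Among tubule segments F was 17.8, and 29.0 without ATL mouse 4 (permutation test, adjusted p = 3.5e-05 in both).

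Cox7b2 and Cox8c, testis isoforms, were seen at low levels where odorant and vomeronasal receptor genes were also listed, and the part of that signal was not tested. Cox7b2 was 15.2, 13.5 and 44.6 TPM in DTL1, 6.35 to 12.3 in GL and 30.2 and 8.61 in ATL mice 4 and 6, against 1.26 and 0 in ATL mice 2 and 3. DTL3, with 504 to 556 receptor genes at 1 TPM, had 0.51 to 9.3 TPM. The groups with at most 6 receptor genes at 1 TPM in every mouse had no more than 1.02 TPM of Cox7b2. Its share was 3.49% in GL and 0.796% in tubule (exact permutation test, adjusted p = 0.0874, and 0.028 without DTL1 mouse 5). That difference passed with permutation within mouse numbers as a replicate block (adjusted p = 0.00192) and as log2 ratios with pseudocounts of 1 and 0.1 (permutation test, adjusted p of 0.00695 and 0.0106). Within numbers, the glomerular label can move only among mice 1, 2 and 3. DTL1 mouse 5 and ATL mice 4 and 6, with shares of 10.2, 8.94 and 2.44%, cannot receive it. The block result is therefore no separate support. Cox8c reached 7.9 TPM in GL mouse 1 and 7.74 in DTL1 mouse 5, and its glomerular difference of 0.257 percentage points (exact permutation test, adjusted p = 0.0273) fell to 0.0484 (adjusted p = 0.219) without GL mouse 1. Among tubule segments its adjusted p was 0.0115 by permutation, and 0.0676, 0.0583 and 0.051 without DTL1 mouse 1, DTL1 mouse 5 or ATL mouse 6, while that of Cox7b2 was 0.00467 (F = 4.34, and 8.92 without ATL mouse 4). Cox8b, the muscle partner of Cox8a, was 5.9 TPM in DTL3 mouse 2 and at most 1.44 elsewhere. Its share did not differ among tubule segments (permutation test, adjusted p = 0.24), but did without DTL3 mouse 1, 2 or 3 (0.0133, 0.00487 and 0.013). Germ cell markers summed to 2.77 to 11.2 TPM in DTL1 and 4.4 to 15.4 in GL. Cox6c2 had a mean of 11.5 TPM in DTL2 and shares 52.7% of its 50-base words with another gene, so its level is uncertain. Ndufb6, Ndufa13, Uqcrb, Cox7c and Ndufs5 share 31.6, 27.1, 25.4, 22.1 and 21.7% of theirs, and their levels are uncertain too, while Cox7a1 and Cox7a2 share none.

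**Figure D5:**
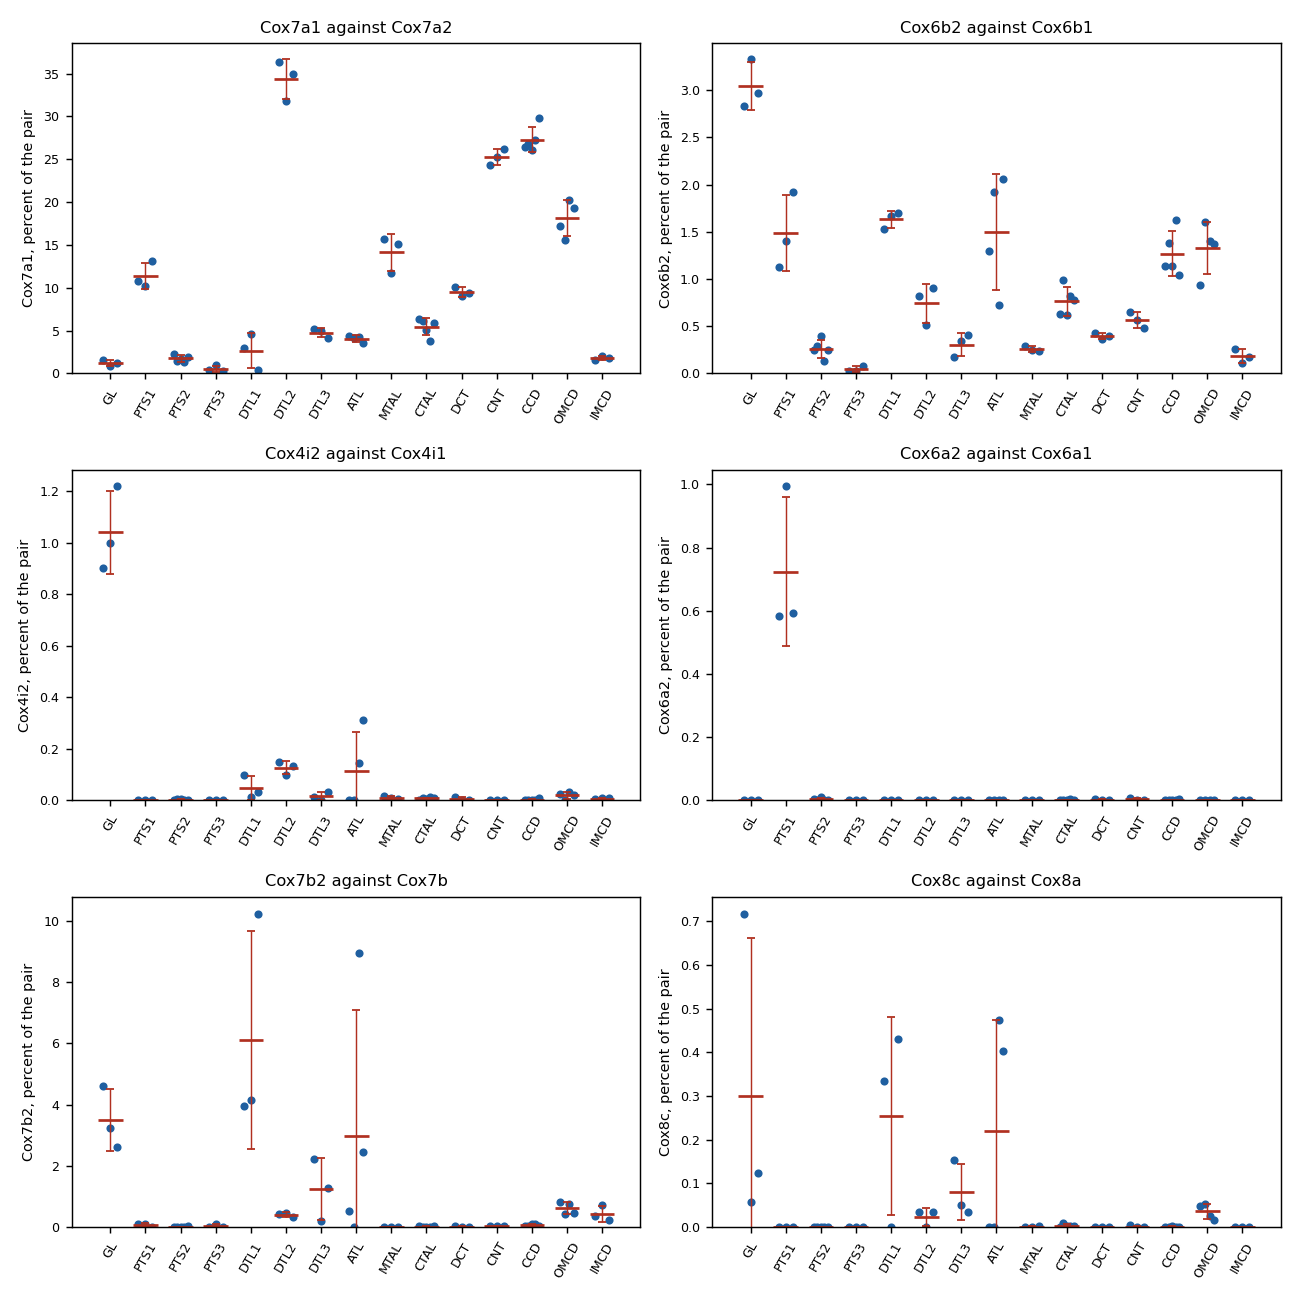
Share of the alternative isoform in the summed TPM of each pair (y axis, percent, with a scale of its own in each panel) by group (x axis); points are mice, red lines are means and bars are SD. Cox7a1 reaches 31.8 to 36.4% in DTL2, Cox4i2 stands out in GL, Cox6a2 in PTS1, Cox7b2 is high in every GL mouse (2.62 to 4.59%) and DTL1 mouse (3.96 to 10.2%) and in ATL mice 4 and 6, and Cox8c in GL mouse 1, DTL1 mice 1 and 5 and ATL mice 4 and 6.

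Other mitochondrial lists were written with earlier results of these data known. All 16 tested ATP synthase genes were higher in rich than in poor segments (median 1.15), with 1 of them lower under quantile normalization, led by Atp5f1 (1142 and 350 TPM, 1.78 ± 0.05, limma adjusted p = 6.51e-31) and Atp5g3 (1.75 ± 0.04). All 18 genes of the citric acid cycle and pyruvate entry were higher (median 1.16), led by Suclg2 (2.65 ± 0.13), a succinyl-CoA ligase. Of 42 assembly factors 23 were higher and 10 lower, and 38 and 2 after median-ratio rescaling, from Sco2 (2.05 ± 0.17), a copper chaperone of complex IV, and Ndufaf6 (1.16 ± 0.07) to Sdhaf2 (-1.03 ± 0.06) and Sdhaf3 (-0.85 ± 0.08, and 0.35 under quantile normalization). Of 16 biogenesis regulators 8 were higher and 6 lower, and 12 and 3 under quantile normalization: Ppargc1b (2.04 ± 0.13) and Ppara (1.56 ± 0.13) against Nrf1 (-1.56 ± 0.11), a transcription factor of respiratory genes, and Pprc1 (-1.48 ± 0.11). Of 12 electron carriers and relatives 7 were higher, led by Etfa (1.86 ± 0.07) and Ndufab1 (1.39 ± 0.06), and 2 lower, Cyct (-0.95 ± 0.12), the testis cytochrome c, and Higd1b (-0.48 ± 0.17, and 0.17 under quantile normalization). Proximal segments against the thick limb and DCT gave 0 higher and 18 lower for the citric acid cycle list and 0 and 16 for ATP synthase, and 2 and 15 and 1 and 13 after median-ratio rescaling. In GL the citric acid cycle list had 18 of 18 lower than tubule and ATP synthase 15 of 16.

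Of the 13 protein genes of the mitochondrial genome, 7 were tested and the other 6 were listed at 0 in every mouse. All 7 were higher in rich segments, led by mt-Cytb (18015 and 4187 TPM, 2.02 ± 0.11) and mt-Nd1 (1.99 ± 0.11). Their summed TPM divided by the summed member TPM was 1.55 in PTS3 and 0.238 in DTL3, and within ATL it was 0.259, 0.372, 1.69 and 0.592 in mice 2, 3, 4 and 6.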

How the data were processed

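The authors deposited TPM values per gene and sample. Per the submitters' processing notes the tools include STAR 2.5.4a and RSEM 1.3.0, and the genome build is not given in the sources used here. Per the labels' protocols, RNA was purified with Direct-zol, amplified with SMARTer V4 and made into libraries with Nextera XT, which do not mark strand, so antisense reads cannot be told apart. Depth is unknown. One PTS2 column, named for mouse 2, matched no title in its piece letter and entered PTS2 as a mouse of its own, not tied to a number, and 3 single-cell samples were not analysed here. limma 3.58.1 (R 4.3.3) was fitted to log2(TPM + 1) of 33793 genes at 1 TPM or more in at least 3 mice, with Benjamini-Hochberg adjustment over all of them. A log2(TPM + 1) difference understates changes of low genes. Shares of an isoform in its pair were tested by permutation (scipy 1.17.1, Python 3.11.15). The fits were tested on simulated data. Members, lists and tests were chosen with earlier results of these data known. Named in full were isoform pairs, the most abundant, most variable and least variable members of each complex, members high in 1 group, and the 2 list genes with the widest rich minus poor difference each way, and 2 genes that entered the counts are not reported here by name. Alternatives changed the pseudocount, the filter, the scaling, the averaging, the block and the mice. Shared sequence was counted as 50-base words in GENCODE M21 transcripts, and 36 of the 68 members share none.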

Additional observations from a re-analysis of the deposited data

Results flagged for a closer look

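In the 5 groups with 4 or 5 mice, 27 measures each were checked for a mouse set far apart from the rest. Of these 135 checks 9 found one, where chance gives about 1 in 20. That rate does not hold for shares at 0 in all other mice, since any value above 0 is then flagged. In CCD, mouse 5 had a Cox4i2 share of 0.00941% (others 0 to 0.00146%) and a Cox6a2 share of 0.00301% (others 0). The PTS2 mouse whose column matched no title had a Cox7b2 share of 0.0319% (others 0). Cox8b shares of 0.00945% in CCD mouse 1 and 0.0128% in OMCD mouse 3 stood against 0 in the others. Cox8c shares were 0.0102% in CTAL mouse 2 (others at most 0.00283%) and 0.00249% in CCD mouse 3 (others 0). Among the abundant genes, Ndufs1 was 680 TPM in CTAL mouse 5 (others 626 to 639) and Sdhc 239 TPM in CCD mouse 4 (others 270 to 276).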

How the results depend on the processing

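Pseudocounts of 0.1, filters of 5 TPM or none, averaging before the log and leaving out the mitochondrial genome rows kept the total number of members called in each comparison within 1.5 times. By direction, leaving out those rows took the lower members in DTL2 minus PTS3 from 8 to 13, no filter took those in DCT minus CTAL from 11 to 7, and a pseudocount of 0.1 took those lower by a log2 unit between rich and poor segments from 1 to 3. The 2 higher members in CNT minus DCT became 0 with a pseudocount of 0.1 and 1 with no filter or without those rows, and the 2 higher in PTS3 minus PTS1 became 1 with no filter. Median-ratio rescaling gave 54 calls with the direction turned in DTL2 minus PTS3 (Ndufb8 there -0.49), 14 in CTAL minus MTAL, 5 in DCT minus CTAL and 52 in CNT minus DCT. Quantile normalization left 21 members past a log2 unit between rich and poor segments. A pseudocount of 5, or median-ratio rescaling, gave 2 members high in a single group. Leaving out 1 mouse gave 2 to 7 calls in CTAL minus MTAL, 5 to 12 in DCT minus CTAL, 9 to 19 in CNT minus DCT and 1 to 3 single-group members. For the glomerulus against tubule, log2 ratios with pseudocounts of 1 and 0.1 gave -2.43 and -2.57 for Cox7a1, and 3.66 and 4.96 for Cox7b2, all past the threshold. Leaving out 1 mouse gave 2.14 to 3.13 percentage points for Cox7b2 and 0.0484 to 0.377 for Cox8c. Among tubule segments F without 1 mouse was 1.22 to 4.19 for Cox8b and 2.22 to 5.38 for Cox8c. The cause was not tested. For Cox8b, listed at 0 in all GL mice and most others, those log2 ratios follow Cox8a by construction, so their 1.13 for the glomerulus with a pseudocount of 1 and their F of 7.7 and 2.45 among tubule segments say nothing of its share.

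Mouse numbers were not taken to pair segments, since the labels name no shared animal. The correlation of deviations was over 0.1 in 19 of 290 same-number pairs (-0.22 to 0.282) and in 32 of 1016 pairs with different numbers (-0.283 to 0.26). That is a larger share of the same-number pairs, and the median was 0 in both. Deviations from the mean of few mice sum to 0 in each group, so this check cannot decide whether animals are shared. With the number as a replicate block, with the PTS2 column that matched no title (named for mouse 2) as a block of its own, the Cox7b2 difference of 2.69 passed (permutation within mouse numbers, adjusted p = 0.00192), and the other 32 results kept direction and call. The glomerular label then moves only among mice 1, 2 and 3. DTL1 mouse 5 and ATL mice 4 and 6 never carry it, so the Cox7b2 pass is no separate support. No depth is known, so low isoforms listed at 0 cannot be given a limit.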
